A study of Mus musculus with 4 samples.

Results

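The 8 genes described here encode cell-surface molecules that leukocytes meet on vessel walls and stroma: Vcam1, Icam1, Icam2, Sele, Selp, Ackr1, Pecam1 and Cd34. They were chosen by name, and all 8 were found among the 32285 genes of each of 4 single-cell RNA libraries. The libraries came from femur bone marrow of C57BL/6 mice that lack Rag2 and the common gamma chain (Rag2-/-gammac-/-), which therefore have no lymphocytes of their own. Ctrl was not grafted, Sham_D40 received PBS and was taken at day 40, and Graft_D19 and Graft_D40 received the human follicular lymphoma line DOHH2 in the femur and were taken at days 19 and 40. Each group is 1 library. Cells had been sorted as Cd45 and Ter119 negative, either Cd31 negative with Cd51 and Cd200 (stroma) or Cd31 positive with Sca1 (endothelium). Pecam1 encodes Cd31 and Ly6a encodes Sca1, so the endothelial sort selected on the protein of 1 of the 8 genes.

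Leukocytes leave the blood in steps. The selectins, encoded by Sele and Selp, catch rolling cells by their sugar ligands. Vcam1, Icam1 and Icam2 then bind integrins for firm arrest, and Pecam1, found at endothelial junctions, takes part in the passage between cells. Ackr1 is an atypical receptor that binds chemokines without classical signalling, and Cd34 is a sialomucin of progenitors and many vessels. Marrow is unusual in that its sinusoids carry Vcam1 and both selectins at rest, and its LepR stroma, perivascular cells that make Cxcl12 and Kitl, also carries Vcam1, which holds haematopoietic and B lineage cells through the integrin VLA-4.

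Sele and Selp lie on chromosome 1 of mm10 on the same strand, at 164048234-164057677 and 164115264-164150026. Cd34 lies farther along chromosome 1 at 194938819-194961279, and Ackr1 on its minus strand at 173331886-173333750. Vcam1 is on chromosome 3 (116109949-116129688, minus strand), Icam1 on chromosome 9 (21015985-21028817, plus strand), and Icam2 and Pecam1 on chromosome 11 (106377656-106388075 and 106654217-106750628, both minus strand). The 200 bases before the start of Sele, Selp and Cd34 are printed because both selectins were lower and Cd34 was higher in the same sinusoidal-like cells of the grafted library at day 40. They are plus-strand RefSeq sequences on GRCm38.p6, at chr1:164048034-164048233, chr1:164115064-164115263 and chr1:194938621-194938820. The gene positions above are from GENCODE, whose Cd34 start differs from that of RefSeq, so the Cd34 window ends just inside the gene as given.
Sele: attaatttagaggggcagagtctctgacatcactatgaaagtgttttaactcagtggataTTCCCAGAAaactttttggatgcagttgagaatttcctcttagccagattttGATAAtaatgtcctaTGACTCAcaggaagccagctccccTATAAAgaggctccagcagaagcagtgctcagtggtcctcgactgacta
Selp: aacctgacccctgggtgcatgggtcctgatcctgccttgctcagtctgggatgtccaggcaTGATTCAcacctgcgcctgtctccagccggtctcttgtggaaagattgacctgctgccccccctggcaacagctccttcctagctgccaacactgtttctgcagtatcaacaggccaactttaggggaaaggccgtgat
Cd34: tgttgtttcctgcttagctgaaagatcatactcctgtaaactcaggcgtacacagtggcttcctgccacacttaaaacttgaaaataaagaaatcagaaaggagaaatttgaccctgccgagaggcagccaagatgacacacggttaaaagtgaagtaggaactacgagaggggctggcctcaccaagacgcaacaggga
Capitals mark matches on either strand to 4 short motifs: the AP-1 motif TGANTCA, the TATA box TATAAA, the GATA factor motif GATAA and the STAT motif TTCNNNGAA. Sele holds all 4, with its AP-1 match starting 73 bases and its TATA box 49 bases before the start. Selp holds an AP-1 match 139 bases before the start, and Cd34 holds none of the 4. Among 32851 windows of the same length, 5.48% hold the AP-1 motif, 9.96% the TATA box, 18.1% the GATA motif and 5.49% the STAT motif. The full NF-kB consensus, found in 3.18% of windows, has no exact match in the 3 windows shown, and near matches were not searched. These matches describe letters, not bound sites. Of the 8 genes 5 had a window in the RefSeq table.

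Cells were assigned by scores of marker genes that do not include any of the 8. The sinusoidal gate, on markers such as Stab2, Flt4 and Gpr182, held 1084, 838, 1053 and 582 cells, where values of the 4 libraries are given in the order Ctrl, Sham_D40, Graft_D19, Graft_D40 here and below. That was 74.4%, 67.1%, 80.3% and 46.0% of the endothelial cells, shares that the sort can set. The LepR gate held 1880, 2212, 1959 and 1401 cells. A gated class is a range of a score and not a cell type. The median sinusoidal score was 1.89, 2.04, 1.78 and 1.44 against a threshold of 0.75, and 27, 30, 104 and 125 endothelial cells lay within 0.15 of that threshold. When the cells were also clustered without the 8 genes, the sinusoidal-like cells did not all fall into 1 cluster. Cluster 5 held 88.3% of those of Ctrl, and cluster 12 held 83.2% of those of Sham_D40 and 63.8% of those of Graft_D19. Those of Graft_D40 were split between cluster 6 (46.9%) and cluster 12 (45.9%), and 5.35% of those of Ctrl, 58 cells, lay in cluster 12. Cluster 12 was led by the sinusoidal genes Stab2 and Mrc1. Cluster 6 was led by the arterial genes Sema3g and Gja4 and held more arterial than sinusoidal markers among its 10 leading genes. The sinusoidal markers among these 10 were Ramp3 and Piezo2, which count toward the sinusoidal gate as Stab2 does. For that reason the values of cluster 12 are set beside those of the whole sinusoidal gate.

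Levels are given as CPM, the UMIs of a gene in a class and library scaled to a common total of all genes, and brackets after a value give 95% intervals for counting error only. Such intervals say nothing of the spread between mice. With 1 library per group no test across groups was possible, and mouse and library cannot be told apart from the graft. Graft_D40 and Sham_D40 were both taken at day 40. There was no sham library of day 19. In Graft_D19 over Ctrl, injection and day therefore cannot be told apart from the graft either. A difference is called from 1.5-fold upward at a mean of 5 CPM or more. Sequencing gave 18533482 UMIs in Ctrl and between 51744386 and 72204599 in the other libraries. Any pair of libraries shared between 11 and 15 cell barcodes. Relative to Ctrl the median gene was higher by 0.20 to 0.27 on the log2 scale in both classes and both comparisons used here, against 0.04 and 0.07 for Graft_D40 over Sham_D40.

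**Figure D1:**
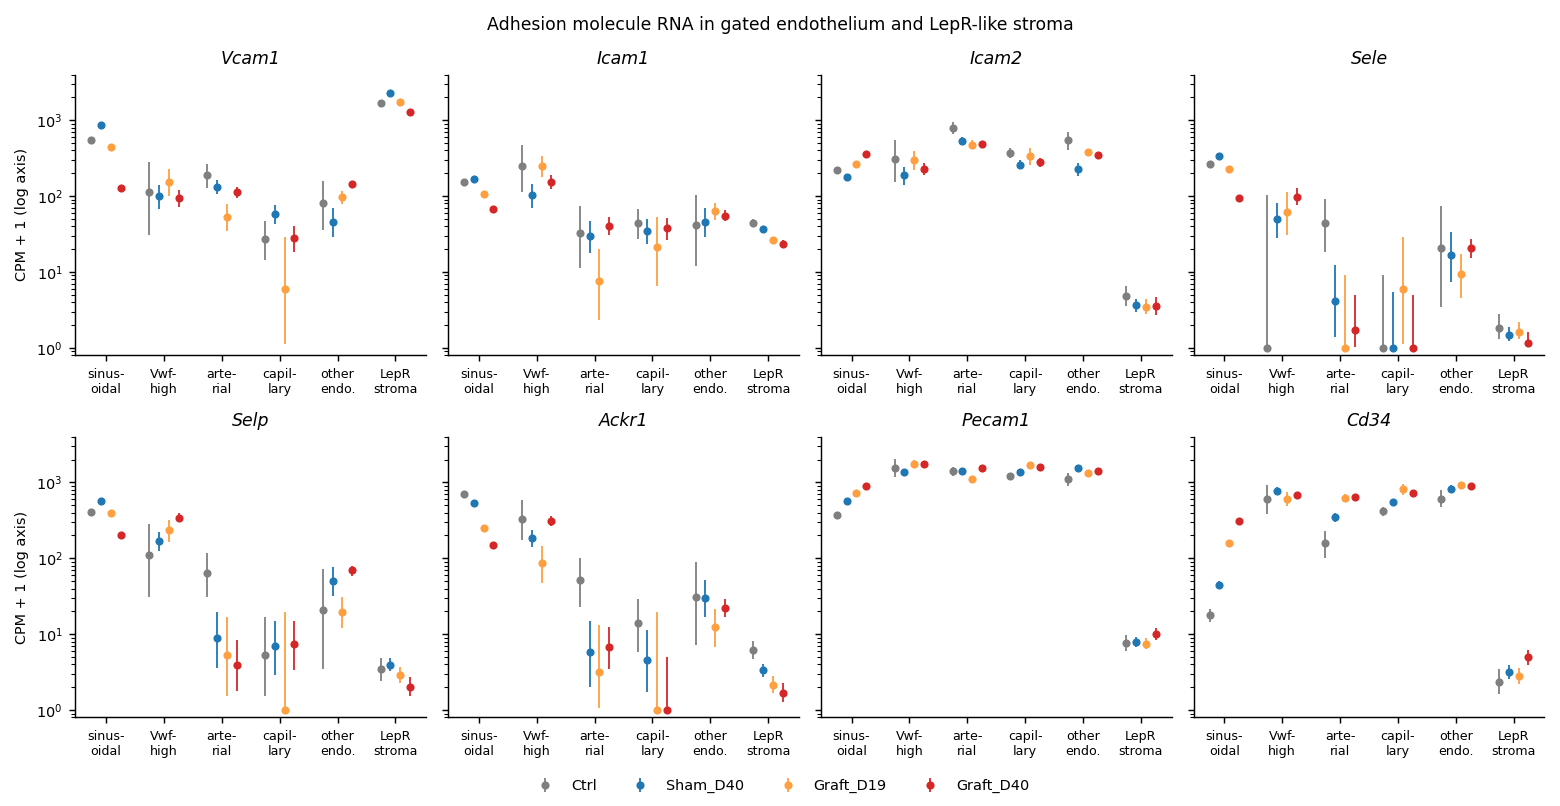
Level of each gene (CPM + 1, log axis) in 5 endothelial classes and LepR-like stroma, with points for the 4 libraries and bars for 95% Poisson intervals. Vcam1 is at 1293 to 2310 CPM in LepR-like stroma, whereas the other genes are highest in endothelium.

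Most Vcam1 RNA of these sorted cells came from stroma. LepR-like cells held 78.7%, 84.9%, 80.6% and 80.7% of the Vcam1 UMIs in the 4 libraries, and sinusoidal-like cells held 17.9%, 11.6%, 13.7% and 3.84%. Sele, Selp and Ackr1 were instead concentrated in sinusoidal-like cells, which held 96.7%, 96.5%, 95.3% and 82.3% of Sele UMIs. The corresponding shares were 71.4% for Selp and 72.4% for Ackr1 in Graft_D40, and at least 93.9% for both in the other libraries. Like the shares of cells, these shares of UMIs also depend on how many cells of each class were sorted. Within endothelium Vcam1 was highest in sinusoidal-like cells in Ctrl, Sham_D40 and Graft_D19, at 443 to 857 CPM, against 52.6 to 188 CPM in arterial-like cells and 5.05 to 57.4 CPM in capillary-like cells of these libraries. In Graft_D40 it was not: sinusoidal-like cells stood at 128 CPM (119 to 138), arterial-like cells at 111 (93.9 to 130) and endothelial cells that passed no subtype gate at 142 (127 to 157), with overlapping intervals, and capillary-like cells at 27.0 CPM. Icam2 was highest in arterial-like cells in every library (478 to 794 CPM), and Pecam1 and Cd34 were lowest in sinusoidal-like cells in every library among the endothelial classes.

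Vcam1, the ligand of VLA-4, was lower in sinusoidal-like endothelium of the late graft. Its level was 542, 857, 443 and 128 CPM. Graft_D40 lies below all other libraries, and Sham_D40 lies above all of them. The level in Graft_D40 was 6.68-fold lower than in Sham_D40 (6.19 to 7.22), a log2 ratio of -2.73. Within cluster 12 the levels were 441, 911, 561 and 220 CPM, and Graft_D40 was 4.14-fold lower than Sham_D40 (3.80 to 4.50). Among the cells in the uppermost of 3 bands of the sinusoidal score (769, 681, 559 and 177 cells), they were 541, 930, 586 and 275 CPM. The lower level was thus also seen among the cells with most sinusoidal marker RNA, at a smaller size. Graft_D19 over Ctrl gave a log2 ratio of -0.29 in the whole gate, and Sham_D40 was 1.58-fold higher than Ctrl. Adipoq and Lepr, LepR stroma genes, stood in sinusoidal-like cells at 0.879% to 1.61% and 1.58% to 2.68% of their levels in LepR-like cells. For Vcam1 the same share was 32.0%, 37.1%, 25.7% and 9.93%. All 14 LepR stroma markers were found in sinusoidal-like cells, at summed levels of 766 to 1084 CPM, and the 9 macrophage markers summed to 7.45 to 16.4 CPM.

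Icam1 and Icam2, which bind the integrin LFA-1, moved in opposite directions. Icam1 was at 151, 165, 105 and 66.4 CPM, which made it 2.48-fold lower in Graft_D40 than in Sham_D40 (2.21 to 2.79). Icam2, which endothelium carries at rest, was at 219, 176, 266 and 355 CPM, 2.02-fold higher in Graft_D40 than in Sham_D40 (1.88 to 2.16). The late graft therefore held the lowest Icam1 and the highest Icam2 of the 4 libraries. In cluster 12 both differences kept their direction, with Icam1 1.67-fold lower and Icam2 1.79-fold higher.

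Both selectin genes were lowest in the late graft. Sele, encoding E-selectin, was at 266, 338, 229 and 92.4 CPM, 3.66-fold lower in Graft_D40 than in Sham_D40 (3.33 to 4.02). Selp, encoding P-selectin, was at 404, 573, 393 and 203 CPM, 2.82-fold lower (2.64 to 3.01). At day 19 neither selectin was apart from Ctrl by the fold used, with log2 ratios of -0.22 and -0.04. Cluster 12 gave 2.01-fold lower for Sele and 1.86-fold lower for Selp in Graft_D40 than in Sham_D40. Pf4, a megakaryocyte gene whose cells also make Selp, was at 43.9, 21.4, 25.6 and 19.2 CPM in the sinusoidal-like cells.

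Ackr1 was lower at both graft times. It stood at 706, 538, 251 and 149 CPM. The ratios were 2.81-fold lower for Graft_D19 than for Ctrl (2.68 to 2.96) and 3.62-fold lower for Graft_D40 than for Sham_D40 (3.37 to 3.91). Both grafted libraries lie below both ungrafted ones, also in cluster 12, where the levels were 590, 581, 345 and 286 CPM. The last exons of Cadm3 lie on the same strand, and 361 of 1405 exon bases of Ackr1 (25.7%) are shared with it, so its counts are uncertain. Cadm3 itself was at 84.8, 103, 60.7 and 54.8 CPM in these cells.

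Pecam1 and Cd34 were higher in both grafted libraries than in the ungrafted ones. Pecam1 was at 367, 561, 728 and 886 CPM, 1.58-fold higher in Graft_D40 than in Sham_D40 (1.52 to 1.65) and 1.99-fold higher in Graft_D19 than in Ctrl. In cluster 12 the first of these was 1.37-fold, under the fold used. Cd34 was at 16.8, 43.8, 159 and 313 CPM, 7.15-fold higher in Graft_D40 than in Sham_D40 (6.35 to 8.07) and 9.44-fold higher in Graft_D19 than in Ctrl (7.62 to 11.8). Cluster 12 held 15.7, 11.5, 31.2 and 104 CPM of Cd34, 9.04-fold higher in Graft_D40 than in Sham_D40 (6.99 to 11.8), and the Graft_D19 ratio there was 1.99 with an interval of 0.902 to 5.49 that rests on 6 UMIs in Ctrl. Cluster 6 held 528 CPM in Graft_D40 and 473 in Sham_D40. The sort marker gene Ly6a stood at 658, 447, 607 and 1418 CPM, and Stab2, a sinusoidal marker, at 1386, 1533, 1022 and 551 CPM. Of the other cells that carry Cd34, fibroblasts have the defining marker Clec3b, which was at 0.538 CPM or less in these cells. The 12 fibroblast markers summed to 320, 336, 429 and 978 CPM, of which Ly6c1, a gene that endothelium also expresses, made up 289, 233, 366 and 853 CPM. The part of these genes in the differences was not tested.

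**Figure D2:**
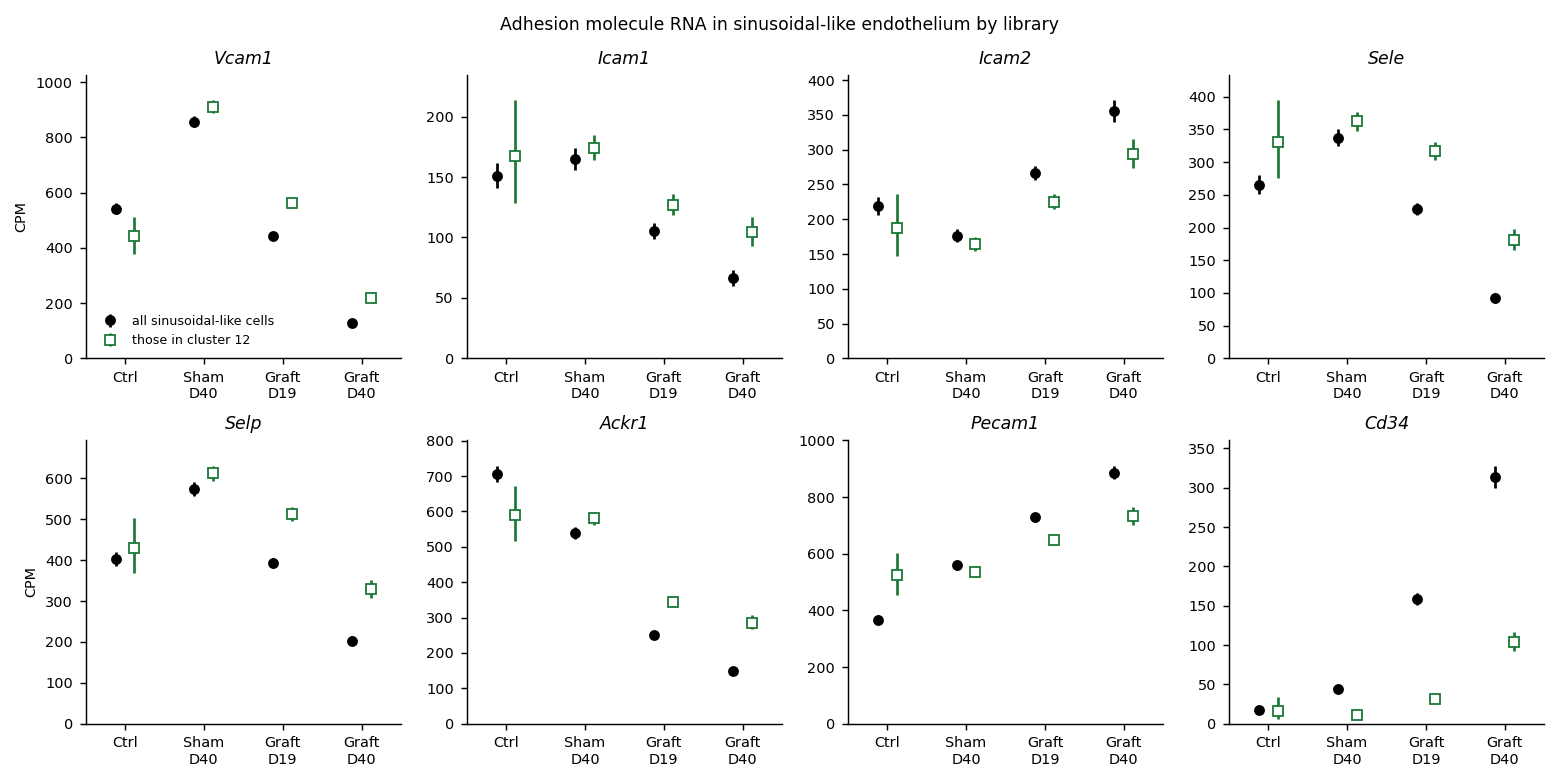
Level in CPM (linear axes from 0) in all sinusoidal-like cells (filled circles) and in those of cluster 12 (open squares), with 95% Poisson intervals, for each library. Vcam1, Icam1, Sele, Selp and Ackr1 are lowest in Graft_D40 and Icam2, Pecam1 and Cd34 highest in Graft_D40, in both sets of cells.

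All 8 genes were thus apart by 1.5-fold or more between Graft_D40 and Sham_D40 in sinusoidal-like endothelium, 5 lower and 3 higher. Among 10245 genes measured there, 7.04% were lower and 7.94% higher. For Graft_D19 over Ctrl 2 genes were higher (Pecam1 and Cd34) and 1 lower (Ackr1), beside 21.1% and 7.72% of all genes. Sham_D40 differed from Ctrl in 3 of the 8, all higher (Vcam1, Pecam1 and Cd34), beside 21.5% higher and 9.64% lower of all genes. The median log2 ratio of the 8 was -1.39 for Graft_D40 over Sham_D40, -0.13 for Graft_D19 over Ctrl and 0.42 for Sham_D40 over Ctrl. These comparisons are not independent of each other, since they share libraries.

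Cells were then compared at equal depth, each thinned to 2000 UMIs. Cells under that depth were left out, which were 193, 24, 32 and 7 of the sinusoidal-like cells. A Vcam1 UMI was found in 51.6%, 67.2%, 44.1% and 15.0% of the cells that remained, against 72.0%, 88.7%, 69.6% and 38.1% of all cells before thinning. A Cd34 UMI was found in 2.81%, 5.16%, 15.9% and 37.7%. In LepR-like stroma, which should lack E-selectin, a Sele UMI was found in 2 of 1572, 3 of 2156, 2 of 1894 and 0 of 1359 cells, at most 0.139%, where the count of 0 allows up to 0.271%. In sinusoidal-like cells the share was 32.4%, 38.5%, 27.8% and 10.3%. Median depth before thinning was 8737.5 UMIs in the LepR-like and 8813 in the sinusoidal-like cells of Sham_D40.

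Some cells held no UMI of several of these molecules. Such shares also follow from how often each gene is detected alone, and no reference for independent detection was computed. Cell mix differed too: the lowest of 3 score bands held 36.3% of the sinusoidal-like cells of Graft_D40 and 6.56% of those of Sham_D40. In that band of Graft_D40 Vcam1 was at 41.6 CPM and Sele at 4.78 CPM. Sinusoidal-like cells with none of Vcam1, Sele, Selp and Ackr1 made up 10.4% (8.51 to 12.6), 9.95% (7.98 to 12.2), 28.9% (26.1 to 31.8) and 59.1% (55.0 to 63.2). Cells with 3 or 4 of them made up 32.8%, 40.3%, 23.4% and 6.09%. Cells with a Cd34 UMI were 25, 42, 162 and 217 in number. In Graft_D40 6.45% of them held Vcam1 (3.57 to 10.6), against 20.1% of the 358 cells without Cd34 (16.1 to 24.6). In Graft_D19 the shares were 14.2% (9.22 to 20.5) and 49.7% (46.3 to 53.1). Among cells with no Cd34 UMI, Vcam1 was found in 20.1% in Graft_D40 and in 68.9% in Sham_D40 (65.5 to 72.2). That comparison does not fully set aside the cells that carry Cd34, since some of them have no Cd34 UMI at this depth. Sele was found in 1.84% of cells with Cd34 and 15.4% of those without in Graft_D40. Pecam1 was found in 83.9% (78.3 to 88.5) and 77.7% (73.0 to 81.9) of these cells and Icam2 in 53.0% (46.1 to 59.8) and 43.9% (38.6 to 49.2), both pairs with overlapping intervals.

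**Figure D3:**
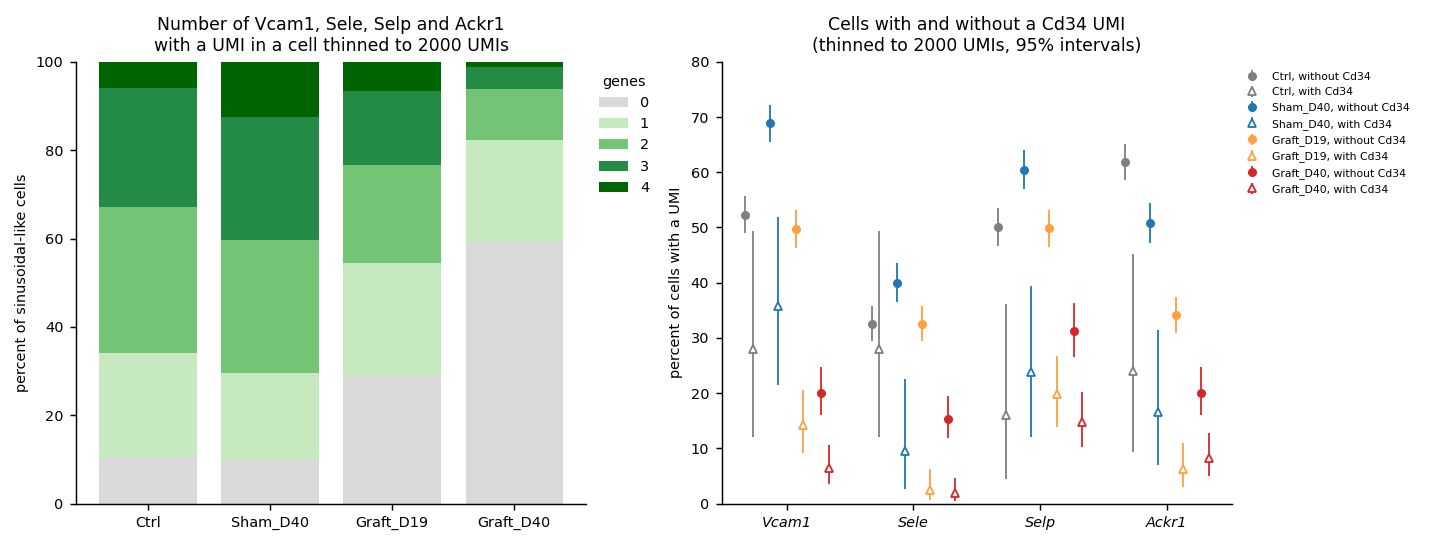
Left, percent of sinusoidal-like cells by how many of Vcam1, Sele, Selp and Ackr1 had a UMI after thinning to 2000 UMIs, per library. Right, percent of cells with a UMI of each of these 4 genes among cells with (open triangles) and without (filled circles) a Cd34 UMI, with 95% Clopper-Pearson intervals. Cells with none of the 4 reach 59.1% in Graft_D40, and for each of the 4 genes the open triangles lie below the filled circles in each library, with overlapping intervals for Vcam1 and Sele in Ctrl.

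In LepR-like stroma Vcam1 was the abundant member. It was at 1691, 2310, 1727 and 1293 CPM, from 12466, 46585, 26843 and 15585 UMIs. The late graft held the lowest and the sham library the highest level, as in sinusoidal-like cells. Graft_D40 was 1.79-fold lower than Sham_D40 (1.75 to 1.82), a log2 ratio of -0.84, whereas against Ctrl it was 1.31-fold lower, under the fold used. Graft_D19 differed from Ctrl by 0.03 on the log2 scale. At equal depth 90.8%, 96.2%, 90.7% and 83.6% of LepR-like cells held a Vcam1 UMI, so the gene stayed detectable in most of them.

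Gate score and cluster both bore on this value. Cluster 17, which held 76.9% of the LepR-like cells of Graft_D40 and 30.3% of those of Graft_D19, was led by Cxcl13 and Col8a1 and had no LepR marker among its 10 leading genes. Its cells held Vcam1 at 1258 CPM in Graft_D40 and 1298 in Graft_D19. Sham_D40 had 34 LepR-like cells there, at 1681 CPM. Cluster 10, which held 58.3% of the LepR-like cells of Sham_D40, stood at 1841, 2401, 2219 and 1847 CPM, and cluster 16 at 2207, 2432, 1859 and 1231 CPM. Graft_D40 over Sham_D40 was thus 1.3-fold lower in cluster 10 (1.24 to 1.37) and 1.98-fold lower in cluster 16 (1.86 to 2.10). The Ctrl values of both clusters rest on a minority of its LepR-like cells, of which 67.4% lay in cluster 2. Among cells in the uppermost of 3 bands of the LepR score (1154, 2009, 1231 and 492 cells) the levels were 1850, 2387, 2051 and 1789 CPM, a log2 ratio of -0.42 for Graft_D40 over Sham_D40, under the fold used. The median LepR score was 2.57, 2.88, 2.64 and 2.36.

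**Figure D4:**
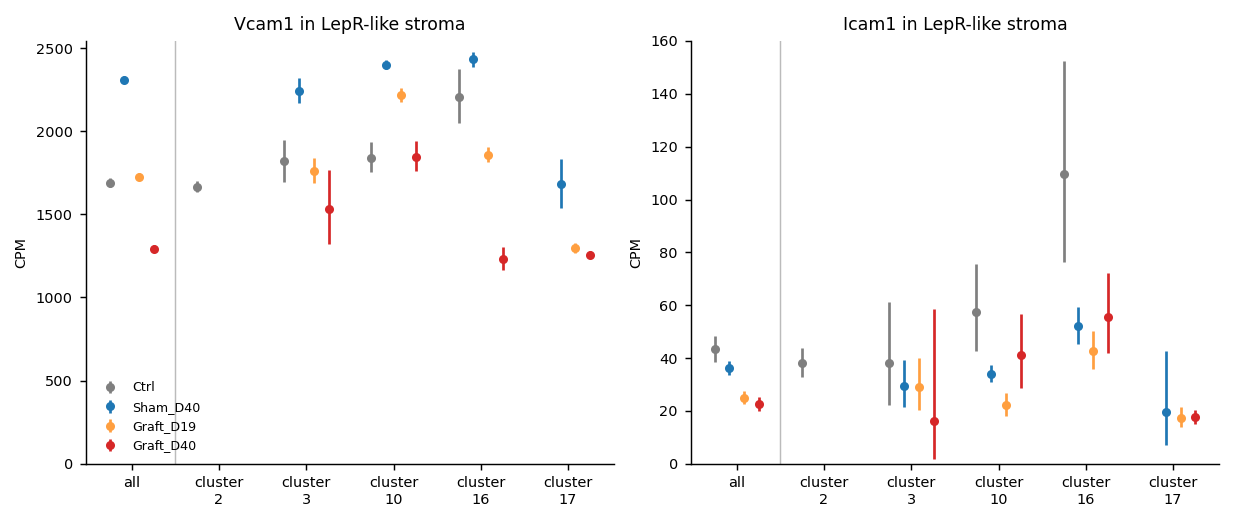
Level in CPM (axes from 0) of Vcam1 and Icam1 in all LepR-like cells and in those of the 5 clusters that held most of them, with 95% Poisson intervals. Clusters 2 and 17 lack points where a library had few cells. Vcam1 is lower in Graft_D40 than in Sham_D40 in clusters 3, 10, 16 and 17, and Icam1 in cluster 17 is near 17 CPM in both grafted libraries.

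Icam1 was the other member measured at a clear level in LepR-like stroma, at 43.3, 36.1, 25.0 and 22.6 CPM. It was 1.6-fold lower in Graft_D40 than in Sham_D40 (1.39 to 1.85) and 1.73-fold lower in Graft_D19 than in Ctrl (1.49 to 2.01). Both grafted libraries lie below both ungrafted ones. The first difference rests on cluster 17, without which the log2 ratio was 0.19 in the other direction: Icam1 was at 33.9 CPM in Sham_D40 and 41.0 in Graft_D40 in cluster 10, and at 52.0 and 55.6 CPM in cluster 16. In the uppermost band of the LepR score Icam1 was at 36.5 CPM in Sham_D40 and 24.2 in Graft_D40, just past the fold used. Of the 8 genes 3 were measured in this class by the minimum used, the third being Pecam1 at 6.50 to 9.12 CPM, and 2 were lower in Graft_D40 than in Sham_D40. Among all genes 4.11% were lower and 6.96% higher. For Graft_D19 over Ctrl 1 of 3 was lower (Icam1), beside 8.56% lower and 28.7% higher of all genes, and for Sham_D40 over Ctrl 0 of 3 was apart, beside 10.7% lower and 26.4% higher. Osteolineage-like cells held Vcam1 at 184, 107, 77.2 and 70.5 CPM.

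The small Vwf-high endothelial class, of 13, 48, 24 and 83 cells, had its highest selectin levels in the late graft. Sele was at 0, 49.0, 61.3 and 97.8 CPM, from 0, 15, 10 and 58 UMIs. Selp was at 111, 166, 233 and 342 CPM, and Ackr1 at 333, 183, 85.9 and 312 CPM. Graft_D40 over Sham_D40 was 2.00-fold for Sele (1.12 to 3.80), 2.06-fold for Selp (1.51 to 2.85) and 1.71-fold for Ackr1 (1.26 to 2.35), all 3 higher. With the class taken from clusters in place of the gate, the log2 ratios were 0.11, 0.56 and 0.08, all under the fold used. Vcam1 in the Vwf-high class stood at 111, 97.9, 153 and 92.8 CPM. Whether the classes differ in their response was not tested.

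Arterial-like and capillary-like cells held both selectins and Ackr1 at low levels. Sele was at 43.8, 3.20, 0 and 0.719 CPM in the arterial-like cells, which numbered 66, 115, 59 and 173. Cd34 in these cells stood at 156, 347, 622 and 634 CPM, 1.83-fold higher in Graft_D40 than in Sham_D40. Capillary-like cells held Cd34 at 414, 543, 812 and 734 CPM and Vcam1 at 26.2, 57.4, 5.05 and 27.0 CPM. Their Vcam1 values rest on 12, 48, 1 and 25 UMIs. Cells that passed no endothelial subtype gate held Vcam1 at 80.1, 45.1, 95.7 and 142 CPM, 3.14-fold higher in Graft_D40 than in Sham_D40 (2.00 to 5.21), opposite to sinusoidal-like cells. These made up 38, 69, 124 and 228 cells.

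Other adhesion genes were taken from fixed lists, by the 3 largest ratios at 20 CPM or more. Here and in the next paragraph, list values in sinusoidal-like cells are given for the whole gate only, not by cluster. Of 18 measured junction and adhesion genes 10 were higher and 0 lower in sinusoidal-like cells of Graft_D40 than of Sham_D40, beside 7.94% higher and 7.04% lower of all genes. Among the 10 were the endothelial gate marker Emcn (678 CPM in Sham_D40 and 1156 in Graft_D40) and Cd200, the gene of a stromal sort protein (140 and 385). Cx3cl1, at 4.03 and 6.05 CPM, only just passed the minimum level and the fold used. Bst1, a surface ADP-ribosyl cyclase, was at 2.42 and 25.8 CPM in Sham_D40 and Graft_D40, the sialomucin Podxl at 60.8 and 209 CPM, and the junctional molecule Jam2 at 24.2 and 82.7 CPM. The list's median log2 ratio was 0.63, against 0.04 over all genes. Podxl was among the 10 leading genes of cluster 6, and Bst1 among those of cluster 8, which was led by Vwf. Cluster 6 held 46.9% of the sinusoidal-like cells of Graft_D40 and 6.32% of those of Sham_D40. The part of this cell mix in the list values was not tested. Among 6 measured genes of selectin ligand synthesis 2 were lower and 0 higher, with the sulfotransferase Chst2 at 482 and 234 CPM and Tpst1 at 40.2 and 24.7 CPM. B4galt1 of the same list went the other way, at 33.3 and 47.0 CPM, under the fold used. None of the 9 leukocyte counter-receptors reached a mean of 5 CPM over both libraries, and Itgb2 was the highest at 5.88 CPM in Graft_D40. Ptprc, encoding the Cd45 used to deplete leukocytes, was at most 0.269 CPM in these cells.

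NF-kB is a pathway known to induce Vcam1, Icam1 and Sele. Of 13 measured genes that respond to it 3 were higher and 0 lower, beside the same 7.94% and 7.04% of all genes, with Ccl2 at 2.96 and 34.2 CPM and Traf1 at 14.2 and 28.4 CPM, while Bcl3 was at 41.0 and 30.1 CPM. The list's median was -0.02. Of 10 inflammatory receptors 1 was higher and 1 lower, shares near those of all genes. Il6st, the shared signalling receptor of the IL-6 family and itself a sinusoidal gate marker, was lower at 2655 and 1078 CPM, and the TNF receptor Tnfrsf1b was higher at 12.9 and 30.4 CPM. Of 5 sheddases that can cleave adhesion molecules 1 was higher, Adam15, at 129 and 254 CPM, a count too small to set apart from the 7.94% of all genes. In LepR-like stroma, where 6.96% of all genes were higher and 4.11% lower and the median was 0.07, 2 of 15 junction and adhesion genes and 2 of 14 NF-kB genes were higher and 0 lower, with list medians of 0.18 and 0.13. Among them were Aoc3, the vascular adhesion protein 1, at 3.97 and 31.4 CPM, Ccl2 at 72.0 and 134 CPM and Cxcl1 at 12.9 and 22.2 CPM. Csf1, of the NF-kB list, went the other way at 649 and 465 CPM, under the fold used. Of 11 inflammatory receptors measured in this stroma 1 was higher, Ifngr2 at 119 and 246 CPM, and 1 lower, Il1r1 at 234 and 132 CPM.

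Over 40 sums of 10 classes in 4 libraries the 8 genes followed different patterns. The correlations given are Pearson's r of log2(CPM + 1), a description over sums that share libraries and depth. Vcam1 was most like Igfbp4 (0.90), Serpina3g (0.83) and Tmem176b (0.82). Sele was most like Gpm6a (0.84), Selp (0.83) and Lgmn (0.80), and Selp like Gpm6a (0.90), Gpr182 (0.90, a gate marker) and Gatm (0.87). The genes nearest Ackr1 were Cadm3 (0.86), with which it shares exon bases, Il6st (0.83, a gate marker) and Gpm6a (0.83). Icam2 and Pecam1 were alike at 0.97. Those nearest Pecam1 were Ptprb, Tnfsf10 and Egfl7, and Icam2 was nearest to Gimap1, Tmem88 and Mmrn2, each at 0.98. Cd34 was most like Ly6c1 (0.95, a fibroblast gate marker), the sort marker gene Ly6a (0.94) and Fbln2 (0.93), and Icam1 like Slco2b1 (0.82), Tgm2 (0.79) and Il6st (0.79). Cd34 was also found in fibroblast-like cells, at 349, 243, 421 and 265 CPM.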

How the data were processed

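RNA was measured in 4 single-cell libraries, Ctrl, Sham_D40, Graft_D19 and Graft_D40, 1 per group. The authors deposited raw UMI counts, unnormalized, for each gene and cell barcode. Cell Ranger 5.0.0 stands in the matrices, per the file headers, and Cell Ranger 3.1.0 with the build mm10 in the submitters' processing notes. Antibody features, held by Sham_D40 and Graft_D40, were left out. No source used here gives the number of mice per library.

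A barcode had to hold at least 500 genes and 1000 UMIs, with no more than 10% of UMIs mitochondrial, and called doublets were removed (Scrublet in scanpy 1.11.5, expected rate 6%), which left 4071, 4526, 4811 and 4864 cells. Marker lists were scored per cell as the mean log of UMIs per 10000. Thresholds were set with the scores in view. A cell took its best list when it led the next by 0.3 and passed that list's threshold (endothelium 0.8, LepR stroma 1.5), and endothelium was split by arterial (0.75), sinusoidal (0.75), capillary (1.3) and Vwf-high (0.6) scores, in that order. No gate passed 184, 190, 306 and 598 cells. Leiden clusters (igraph 0.11.9) were computed without the 8 genes.

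UMIs were summed per class and library and divided by the class total (CPM). Log2 ratios used a pseudocount of 1 CPM. Levels carry exact Poisson, ratios exact conditional binomial and shares Clopper-Pearson intervals, all at 95% and for counting error only. The calculation was tested on simulated data. The 8 genes, the gene lists and the comparisons were chosen with earlier results of these data known. All 8 genes are named in the text. From each other list the 3 genes with the largest absolute log2 ratio at 20 CPM or more in either library are eligible, and for likeness the 3 genes of highest r at a mean of 20 CPM or more. Itgb2, Ptprc, Pf4, Adipoq, Lepr, Stab2, Ly6a, Ly6c1, Clec3b, Cadm3, Emcn, Cd200 and Cx3cl1 were named after their values were seen. Gene positions are from GENCODE vM21. Alternatives are given in the closing section. Software versions were pandas 2.3.3, scipy 1.17.1, numpy 2.4.6 and Python 3.11.15.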

Additional observations from a re-analysis of the deposited data

Results flagged for a closer look

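Some classes moved in opposite directions between the same libraries, Graft_D40 over Sham_D40, by 1.5-fold or more each way. The difference between classes was not tested, since each class has 1 library per group. Vcam1 had a log2 ratio of 1.63 in endothelium outside the subtype gates, against -2.73 in sinusoidal-like endothelium, -1.06 in capillary-like endothelium and -0.84 in LepR-like stroma. The capillary-like value rests on 48 UMIs in Sham_D40 and 25 in Graft_D40. Sele had a log2 ratio of 0.98 in Vwf-high endothelium and -1.86 in sinusoidal-like endothelium. Selp gave 1.04 and -1.49 in the same pair of classes, and Ackr1 gave 0.77 and -1.85. The Vwf-high values rest on 48 and 83 cells, and with the class taken from clusters they were 0.11, 0.56 and 0.08 for Sele, Selp and Ackr1.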

How the results depend on the processing

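Vcam1 in sinusoidal-like endothelium, Graft_D40 over Sham_D40 (log2 ratio -2.73), stayed lower by over 1.5-fold under every alternative run. It was -2.43 under a stricter gate, -2.88 as a mean over cells, -3.07 without the 10 cells with most UMIs of the gene in each library, -1.75 in cells of the highest gate scores and -2.04 without the clusters that fail the marker check. The last 2 alternatives were added after seeing the data. For Graft_D19 over Ctrl (-0.29) the values were -0.10 under the stricter gate, -0.36 with cluster classes, -0.49 under median-of-ratios scaling, 0.12 in cells of the highest scores and 0.0033 without the failing clusters, none past 1.5-fold. The same 5 genes were lower in each setting that counted the 8 genes in sinusoidal-like endothelium. Pecam1 fell under the fold in 3 of them (stricter gate, highest scores, without the failing clusters), which left 7 of 8.

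Vcam1 in LepR-like stroma, Graft_D40 over Sham_D40 (-0.84), was -0.72 under the stricter gate, -0.94 with cluster classes, -0.91 with a LepR gate without 5 of its markers, -0.89 under median-of-ratios scaling, -0.81 as a mean over cells, -0.87 without the 10 top cells, -0.42 in cells of the highest scores and -0.71 without the failing clusters. For Graft_D19 over Ctrl (0.03) it was 0.081 under the stricter gate, -0.21 under median-of-ratios scaling, 0.15 in cells of the highest scores and 0.18 without the failing clusters. The count of genes apart in LepR-like stroma (2) was 1 as a mean over cells, with a pseudocount of 5 CPM and in cells of the highest scores, and 6 with no minimum level. It was 3 with cluster classes and with called doublets kept. Where the count was 1, the gene left was Icam1 in cells of the highest scores and Vcam1 in the other settings. Reversed were Cd34 in sinusoidal-like endothelium for Sham_D40 over Ctrl, at -0.29 in cells of the highest scores, and Icam1 in LepR-like stroma for Graft_D40 over Sham_D40, at 0.19 without the failing clusters. The cause of these changes was not tested.

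Each alternative recomputed the same 66 single-gene ratios (60 with cluster classes), which gave 786 values that are not separate results. Of these values 573 stayed within counting error of the value reported, 211 moved and 2 reversed. Among the 430 values of called ratios 386 stayed past 1.5-fold. No cluster was mostly arterial-like or other endothelium, so cluster classes gave no value there. Thinning to 1000 in place of 2000 UMIs moved 39 of 40 shares of cells. Depth limits Ctrl most: 3 UMIs in its Vwf-high cells amount to 83.1 CPM.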
